A study of Homo sapiens with 8 samples.

Results

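Cohesin and condensin are ring-shaped protein complexes that fold chromosomes. The transcripts of 10 of their subunits, chosen by gene symbol, were described here among 58735 Ensembl genes in RNA sequencing of 22Rv1 cells, an established human castration-resistant prostate cancer line. The 5 cohesin genes were SMC1A, SMC3, RAD21, STAG1 and STAG2, and the 5 condensin genes were SMC2, SMC4, NCAPD2, NCAPG and NCAPH. In the tested group, 4 samples (labelled MARK3i) received PCC0208017, which the submitters call an inhibitor of the kinase MARK3, and 4 control samples received the vehicle DMSO. Both groups are the same cell line, and the labels name no gene edit, dose or duration of treatment. The comparison asked how transcript levels differ in cells given this compound. Nothing in the labels ties the replicates to separate cultures. All p-values therefore rest on the scatter among these 8 libraries, which may be technical.

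As background, cohesin holds sister chromatids together after DNA replication and extrudes loops of chromatin in interphase. SMC1A and SMC3 form its arms, the kleisin RAD21 closes the ring, and STAG1 or STAG2 binds RAD21. Condensin shortens and stiffens chromosomes in mitosis. SMC2 and SMC4 form its arms in condensin I and condensin II alike, whereas NCAPH, NCAPD2 and NCAPG belong to condensin I only. Their counterparts in condensin II are NCAPH2, NCAPD3 and NCAPG2.

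Total counts ranged from 13517289 to 21271127 in inhibitor-treated libraries and from 12672817 to 13386143 in control libraries. Of 16452 genes tested, 58% were called at an adjusted p under 0.05, 29.8% as higher and 28.3% as lower in inhibitor-treated cells. Epithelial markers such as KRT8 (509 to 586 CPM, the count scaled to library size, in inhibitor-treated and 566 to 622 CPM in control libraries) and EPCAM (91.7 to 106 and 95.1 to 101 CPM) were present in every library. The luminal and epithelial list of 11 genes summed to 2780 to 2920 CPM in inhibitor-treated and 3470 to 3520 CPM in control libraries, with 1 gene called higher, 7 lower and 3 not passing. Of the markers of other cell types, the 6 stromal genes summed to 15.1 to 22.9 CPM in inhibitor-treated and 12.2 to 17.4 CPM in control libraries, most of it from COL1A1. The 5 leukocyte genes summed to at most 2.73 and 1.97 CPM and the 4 endothelial genes to at most 0.141 and 0.0762 CPM, with CD3E, PECAM1 and CDH5 at 0 in every library. Mitochondrial mRNAs took 5.465% to 5.687% of the counts in inhibitor-treated and 5.6% to 5.687% in control libraries.

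The libraries differed in their trend on transcript GC content. Relative to the mean of all libraries, log2 CPM of genes in the lowest GC quartile (up to 42.8% GC) minus that of genes in the highest (from 56.7%) averaged 0.29, −0.01, 0.24 and 0.06 in inhibitor replicates 1 to 4. The same difference was −0.005, −0.07, −0.25 and −0.25 in control replicates 1 to 4. The median log2 fold change was 0.15 in the lowest quartile and −0.13 in the highest. Among the subunits, 7 had transcripts of 37.2% to 40.7% GC, within the lowest quartile, and 3 had transcripts of 47.8% to 52.2% GC (NCAPH, SMC1A and NCAPD2). For this reason each log2 fold change below that changes its call once this trend is removed is given with the adjusted value beside it. The trend was removed relative to the mean of all libraries, and it differed between the groups. Any treatment difference that goes with GC content is therefore removed with it. A technical trend and such a difference cannot be told apart here, so the adjusted values are an alternative and not a correction.

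**Figure D1:**
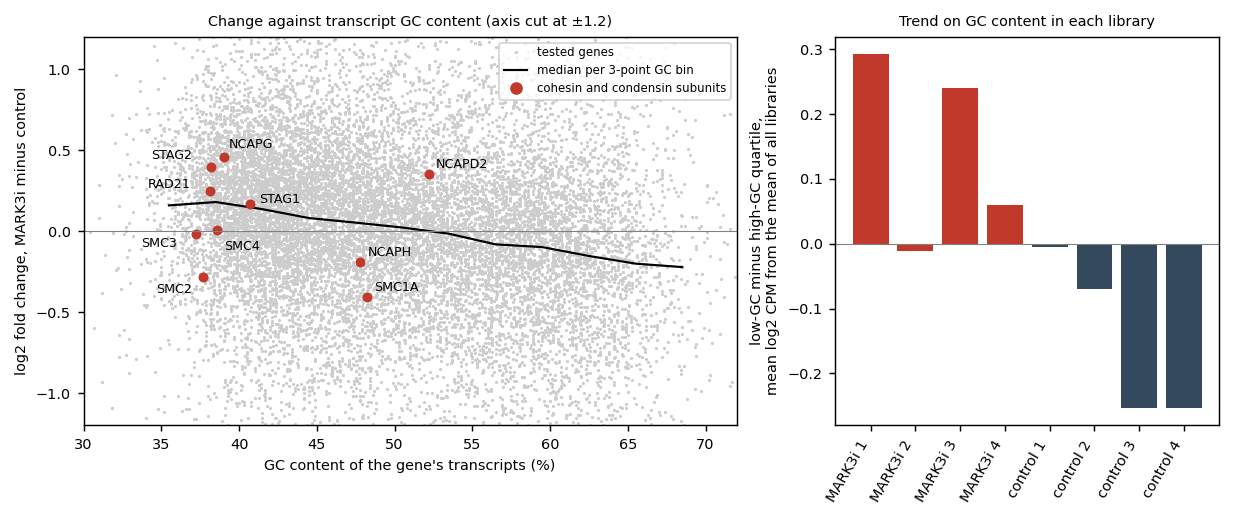
Left: log2 fold change (inhibitor minus control) of the tested genes (grey; those beyond the axis are not shown) against the GC content of its transcripts in percent, with the median per GC bin (line) and the 10 subunits (red); right: mean log2 CPM of low-GC genes minus that of high-GC genes in each library, relative to the mean of all libraries. The median change declines with GC content, and inhibitor replicates 1 (0.29) and 3 (0.24) stand above replicates 2 (−0.01) and 4 (0.06).

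Calls among subunits of the same ring were mixed, as they were among all tested genes. Of the 10 subunit genes, all of which passed the filter on low counts (583 to 11106 counts in a library), 4 rose, 3 fell and 3 did not pass the test. Of all tested genes, 29.8% were called higher and 28.3% lower. The share called (7 of 10) is near the background of 58%, and calls in both directions are common in that background. Neither the share nor the mix of directions is a result about these genes. RAD21, STAG2, NCAPD2 and NCAPG were higher and SMC1A, SMC2 and NCAPH lower in inhibitor-treated cells. In 4 genes every inhibitor library lay above every control (25.8% of tested genes did) and in 2 genes, SMC1A and NCAPH, every inhibitor library lay below (25.1% did). The median log2 fold change was 0.09 over the 10 genes and 0.02 over all tested genes. With the GC trend removed, 3 rose and 5 fell, and with total counts in place of TMM scaling, which moved the median of all tested genes to 0.13, 5 rose and 1 fell. In bulk RNA, a different share of cells at a given cell cycle stage and a different amount of RNA per cell cannot be told apart. All changes are log2 fold changes, inhibitor minus control, ± SE over 4 libraries per group, levels are CPM on the TMM scale, and each adjusted p comes from the quasi-likelihood test of edgeR, with the Benjamini-Hochberg method applied over all tested genes.

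**Figure D2:**
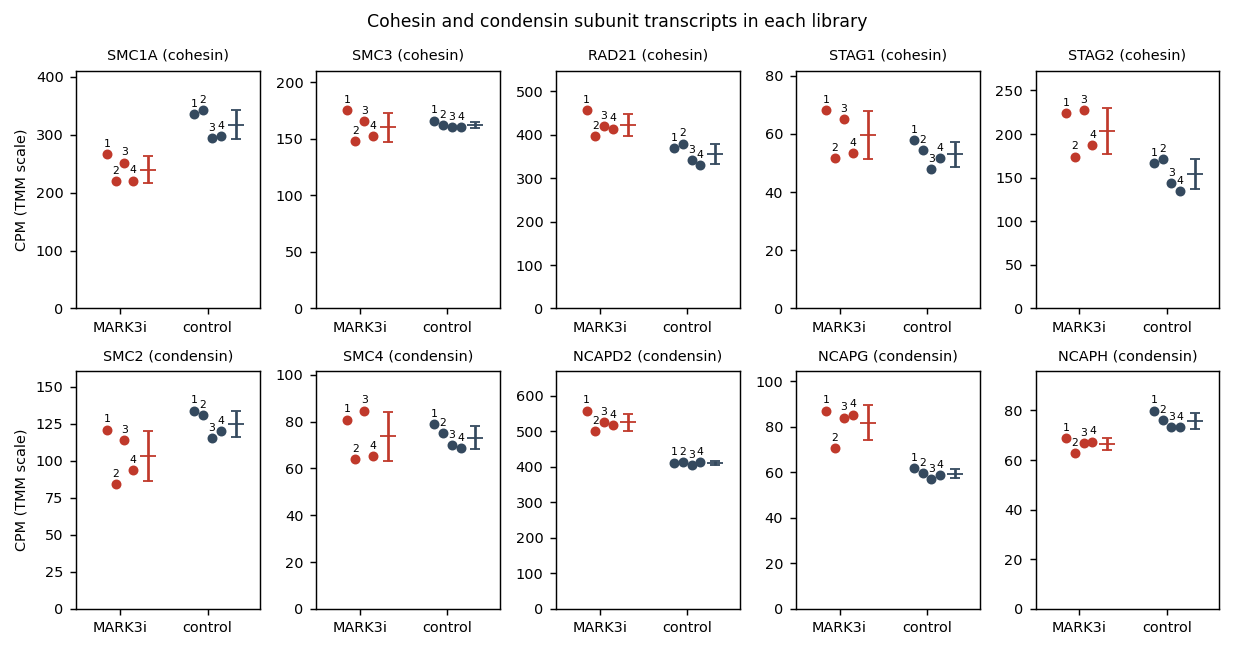
CPM on the TMM scale (vertical axes, from 0) of the 10 subunit transcripts in each inhibitor-treated (MARK3i, red) and control (dark) library, with the replicate number above each point; the bar beside the points is the mean with its SD (n = 4). SMC1A and NCAPH lie lower, and RAD21, STAG2, NCAPD2 and NCAPG higher, in all 4 inhibitor libraries than in any control library.

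SMC1A, the cohesin arm that pairs with SMC3, fell in inhibitor-treated cells. SMC1A (ENSG00000072501; chromosome X, 53374149 to 53422728, hg38, minus strand) had 267, 220.1, 252 and 220.5 CPM in inhibitor replicates 1 to 4, against 336, 342, 295 and 297 CPM in control replicates 1 to 4. The groups did not overlap, and inhibitor replicates 2 and 4 were the lowest libraries. The level averaged 239.8 ± 23.3 CPM in inhibitor-treated cells and 317.5 ± 25 CPM in control cells (SD, n = 4 each), a change of −0.41 ± 0.07 (adjusted p = 1.59e-05). Leaving out any library gave −0.48 to −0.36, and SMC1A kept its call under every alternative tried.

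SMC3, the other arm, did not pass the test. SMC3 (ENSG00000108055; chromosome 10, 110567684 to 110606048, plus strand) had 175, 148, 166 and 152 CPM in inhibitor replicates 1 to 4, against 166, 162, 160.5 and 161 CPM in control replicates 1 to 4. Inhibitor replicate 1 was above all controls, replicates 2 and 4 were below them and replicate 3 was among them, with a change of −0.02 ± 0.06 (adjusted p = 0.799). With the GC trend removed it was lower, at −0.18 ± 0.05 (adjusted p = 0.00114).

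RAD21, the kleisin that separase cuts at anaphase, was the most abundant cohesin transcript by CPM per kilobase of its canonical transcript. RAD21 (ENSG00000164754; chromosome 8, 116845934 to 116874776, minus strand) had 457, 397, 421 and 415 CPM in inhibitor replicates 1 to 4, against 369.8, 379.7, 342 and 331 CPM in control replicates 1 to 4. Every inhibitor library exceeded every control, by the smallest margin between inhibitor replicate 2 and control replicate 2. RAD21 rose by 0.25 ± 0.06 (adjusted p = 0.000878), but with the GC trend removed the change was 0.09 ± 0.05 and did not pass (adjusted p = 0.094). RAD21 shares 576 exonic bases with UTP23 on the opposite strand (22.2 CPM in inhibitor-treated and 26.6 CPM in control cells).

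STAG2, the STAG subunit most abundant in many cell types, rose while its paralog STAG1 did not pass. STAG2 (ENSG00000101972; chromosome X, 123960212 to 124422664, plus strand) had 224, 174, 227 and 187 CPM in inhibitor replicates 1 to 4, against 166, 171, 144 and 135 CPM in control replicates 1 to 4. The groups were separate, though inhibitor replicate 2 lay close to control replicate 2. The change was 0.40 ± 0.09 (adjusted p = 0.000719), 0.24 ± 0.06 with the GC trend removed (adjusted p = 0.000388), and 0.22 without inhibitor replicates 1 and 3 (adjusted p = 0.0159). STAG1 (ENSG00000118007; chromosome 3, 136336236 to 136752403, minus strand) had 68.1, 51.6, 65.15 and 53.5 CPM in inhibitor replicates 1 to 4, against 57.95, 54.3, 47.8 and 51.8 CPM in control replicates 1 to 4. Inhibitor replicates 1 and 3 were above all controls and replicates 2 and 4 among them, with a change of 0.17 ± 0.09 (adjusted p = 0.103). STAG1 was called higher without inhibitor replicate 2 (0.24, adjusted p = 0.018), replicate 4 (0.21, adjusted p = 0.0478) or both (0.32, adjusted p = 0.000965). It was also called higher with total counts (0.27, adjusted p = 0.0113) and with upper-quartile factors (0.20, adjusted p = 0.0473). Its change was 0.03 with the GC trend removed (adjusted p = 0.705), 0.08 without inhibitor replicate 1 (adjusted p = 0.451), 0.11 without replicate 3 (adjusted p = 0.324) and −0.03 without both (adjusted p = 0.771). STAG1 shares 1661 exonic bases with PCCB on the opposite strand, a gene at 98.3 CPM in inhibitor-treated and 103 CPM in control cells. The sources used here do not state if counting was strand-specific, so reads of such partners may not have been told apart.

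The promoters of SMC1A and STAG2 are shown because these cohesin genes moved in opposite directions and both hold letters of the E2F motif, which is bound by E2F factors of G1/S genes. RefSeq windows (GRCh38.p14, 250 bases before to 50 bases after a start) were found for 9 of the 10 genes, 14 windows in all. The letters searched on both strands were TTTCCCGC, TTTCGCGC, TTTGCCGC and TTTGGCGC for E2F, TTTGAA and TTCGAA for the cell cycle homology region (CHR, an element of G2/M promoters), CCAAT for the CCAAT box and CACGTG for the E-box. Capitals mark E2F or CHR letters.
SMC1A promoter, chrX:53422605-53422904, minus strand: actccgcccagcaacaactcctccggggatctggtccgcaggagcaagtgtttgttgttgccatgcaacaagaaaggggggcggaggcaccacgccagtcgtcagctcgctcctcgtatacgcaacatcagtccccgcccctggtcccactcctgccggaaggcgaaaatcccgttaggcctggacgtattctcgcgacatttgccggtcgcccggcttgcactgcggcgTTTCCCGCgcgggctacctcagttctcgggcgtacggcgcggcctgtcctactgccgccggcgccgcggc
STAG2 promoter, chrX:123961808-123962107, plus strand: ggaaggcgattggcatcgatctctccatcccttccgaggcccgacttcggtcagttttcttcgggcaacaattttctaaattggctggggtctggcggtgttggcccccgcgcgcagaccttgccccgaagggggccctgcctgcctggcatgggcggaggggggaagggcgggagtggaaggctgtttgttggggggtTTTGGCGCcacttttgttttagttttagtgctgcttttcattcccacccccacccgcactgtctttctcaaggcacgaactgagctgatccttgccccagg
The SMC1A window holds TTTCCCGC beginning 20 bases before its start, and the STAG2 window TTTGGCGC beginning 51 bases before its start. Other windows of the same genes, 1 of SMC1A and 2 of STAG2, hold neither motif. E2F letters stand in windows of 3 cohesin genes (SMC1A, STAG1 and STAG2) of the 4 with a window, RAD21 having none here, and of 0 of 5 condensin genes. Of all 27058 genes with a window, 3.98% hold E2F letters in at least 1, as do 3.3% of 34796 windows. These matches describe letters and show no binding, and the genes that hold them did not share a direction.

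Within condensin I, NCAPD2 and NCAPG rose. NCAPD2, a HEAT-repeat subunit (ENSG00000010292; chromosome 12, 6493356 to 6531955, plus strand), had 558, 499, 525 and 516 CPM in inhibitor replicates 1 to 4, against 411, 413, 403 and 413 CPM in control replicates 1 to 4. The 4 controls were within a narrow band, far below the lowest inhibitor library. The means were 524.6 ± 24.6 CPM in inhibitor-treated cells and 410.3 ± 4.66 CPM in control cells (SD, n = 4 each), a change of 0.35 ± 0.05 (adjusted p = 3.25e-06) that kept its call in every alternative. NCAPD2 shares 383 exonic bases with MRPL51 on the opposite strand, a gene at 170.0 CPM in inhibitor-treated and 178 CPM in control cells.

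NCAPG, the other HEAT-repeat subunit, also rose. NCAPG (ENSG00000109805; chromosome 4, 17810979 to 17844865, plus strand) had 87.1, 70.5, 84.0 and 85.3 CPM in inhibitor replicates 1 to 4, against 61.9, 59.6, 57.0 and 58.7 CPM in control replicates 1 to 4. All inhibitor libraries were above the controls, with replicate 2 the lowest of them. NCAPG rose by 0.46 ± 0.07 (adjusted p = 4.48e-06), which is 1.38-fold, and by 0.31 ± 0.06 with the GC trend removed (adjusted p = 2.03e-05). It shares 1634 exonic bases with LCORL on the opposite strand, at 26.6 CPM in inhibitor-treated and 22.1 CPM in control cells.

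NCAPH, the kleisin of condensin I, went the other way. NCAPH (ENSG00000121152; chromosome 2, 96335766 to 96377091, plus strand) had 68.7, 62.8, 66.9 and 67.4 CPM in inhibitor replicates 1 to 4, against 80.0, 76.1, 73.3 and 73.3 CPM in control replicates 1 to 4. The groups did not overlap, and the difference was small, at −0.19 ± 0.06 (adjusted p = 0.0122). It did not pass with total counts (−0.08, adjusted p = 0.246) or without inhibitor replicates 2 and 4 (−0.17, adjusted p = 0.0671).

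The condensin arms differed from each other. SMC2 (ENSG00000136824; chromosome 9, 104094260 to 104141419, plus strand) had 121, 84.3, 114 and 93.7 CPM in inhibitor replicates 1 to 4, against 134, 131, 115 and 120.2 CPM in control replicates 1 to 4. Inhibitor replicates 2 and 4 were well below the controls and replicate 1 among them, with replicate 3 just below the lowest control. SMC2 fell by 0.28 ± 0.09 on the log2 scale (−0.28, adjusted p = 0.0127), with −0.445 ± 0.06 once the GC trend was removed (adjusted p = 3.03e-07). The fall did not pass with total counts (−0.18, adjusted p = 0.0989) or without inhibitor replicates 2 and 4 (−0.10, adjusted p = 0.274). SMC4 (ENSG00000113810; chromosome 3, 160399274 to 160434954, plus strand) had 80.9, 64.05, 84.8 and 65.4 CPM in inhibitor replicates 1 to 4, against 79.1, 75.2, 69.9 and 68.6 CPM in control replicates 1 to 4. The controls lay between inhibitor replicates 1 and 3, which were higher, and 2 and 4, which were lower. Its change was 0.01 ± 0.08 (adjusted p = 0.943), −0.15 ± 0.06 with the GC trend removed (adjusted p = 0.0288) and −0.19 ± 0.07 without inhibitor replicates 1 and 3 (adjusted p = 0.0222). SMC4 shares 1553 exonic bases with TRIM59 and 243 with IFT80, both on the opposite strand (47.8 and 27.2 CPM in inhibitor-treated, 37.2 and 17.0 CPM in control cells).

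The promoters of NCAPD2, NCAPG and SMC2 are shown because CHR letters stand in each, although NCAPD2 and NCAPG rose and SMC2 fell.
NCAPD2 promoter, chr12:6493852-6494151, plus strand: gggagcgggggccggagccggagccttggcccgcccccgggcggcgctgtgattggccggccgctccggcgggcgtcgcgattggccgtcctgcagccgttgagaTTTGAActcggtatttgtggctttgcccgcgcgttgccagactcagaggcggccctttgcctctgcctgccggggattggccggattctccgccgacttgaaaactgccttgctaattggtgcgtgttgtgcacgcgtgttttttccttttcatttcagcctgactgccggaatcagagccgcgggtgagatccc
NCAPG promoter, chr4:17810729-17811028, plus strand: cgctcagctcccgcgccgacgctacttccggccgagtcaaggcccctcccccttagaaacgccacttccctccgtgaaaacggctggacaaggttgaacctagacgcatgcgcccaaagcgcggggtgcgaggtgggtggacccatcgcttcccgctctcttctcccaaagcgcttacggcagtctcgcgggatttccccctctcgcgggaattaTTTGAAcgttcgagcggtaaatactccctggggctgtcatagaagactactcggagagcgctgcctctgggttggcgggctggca
SMC2 promoter, chr9:104094059-104094358, plus strand: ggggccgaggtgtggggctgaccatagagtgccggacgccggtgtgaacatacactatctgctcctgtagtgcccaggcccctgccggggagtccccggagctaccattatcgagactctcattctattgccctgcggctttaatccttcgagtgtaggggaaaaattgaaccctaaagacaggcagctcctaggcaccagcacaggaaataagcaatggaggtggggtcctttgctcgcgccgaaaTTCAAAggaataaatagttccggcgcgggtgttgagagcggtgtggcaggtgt
In NCAPD2 and NCAPG, TTTGAA reads along the gene's own strand and begins 145 and 35 bases before the start. In SMC2 the same letters read on the opposite strand and begin 3 bases before the start. CHR letters stand in windows of 4 of the 5 condensin genes and of 1 cohesin gene (SMC3), against 19.6% of all genes with a window and 16.4% of all windows. The NCAPD2 window also holds CCAAT letters at 4 places on the opposite strand, beginning 199, 170, 70 and 30 bases before the start, and 34.6% of all windows hold CCAAT letters. E-box letters, in 7.2% of all windows, were in 0 of the windows of these genes.

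**Figure D3:**
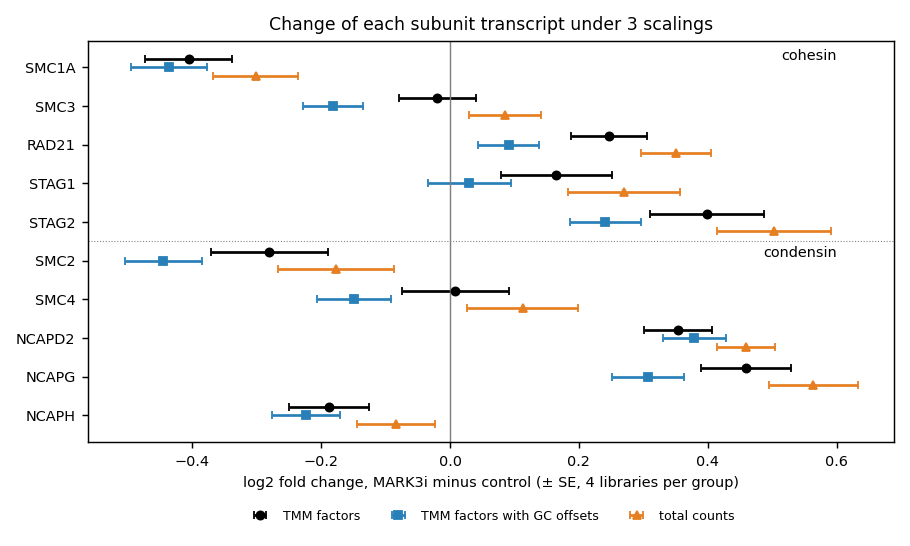
Log2 fold change (inhibitor minus control, ± SE, 4 libraries per group) of each subunit transcript with TMM factors (black), with TMM factors and the GC trend removed (blue) and with total counts (orange). SMC1A stays below 0 and STAG2, NCAPD2 and NCAPG above 0 in all 3, whereas SMC3 and SMC4 move to −0.18 and −0.15 with the GC trend removed.

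In 8 of the 10 genes, all but NCAPG and NCAPH, inhibitor replicates 2 and 4 were both lower than replicates 1 and 3. The same order held in 23.4% of all tested genes and in 46.9% of those in the lowest GC quartile, which holds 6 of these 8 genes. The part of the GC trend in this order was not tested. The coefficient of variation in inhibitor-treated cells was largest for SMC2, at 16.6% (7.1% in control cells), followed by SMC4, at 14.3% (6.7% in control cells). In control cells it was largest for STAG2, at 13.1% in inhibitor-treated and 11.3% in control cells. It was smallest for NCAPH in inhibitor-treated cells (3.8%, against 4.2% in control cells) and for NCAPD2 in control cells (4.7% in inhibitor-treated and 1.1% in control cells). Inhibitor replicates 1 and 3 are also the libraries with the highest low-GC minus high-GC values (0.29 and 0.24).

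Per kilobase of merged exons, NCAPD2 was the most abundant of the 10 transcripts, at 81.1 ± 3.8 CPM per kilobase in inhibitor-treated and 63.4 ± 0.72 in control cells (SD, n = 4 each). RAD21 (29.4 ± 1.7 and 24.7 ± 1.6) and SMC1A (22.1 ± 2.2 and 29.3 ± 2.3) followed, in that order in inhibitor-treated cells and in the reverse order in control cells. NCAPG (16.9 ± 1.6 and 12.2 ± 0.42) and SMC2 (15.9 ± 2.6 and 19.3 ± 1.4) were next and lay within their spread of each other in inhibitor-treated cells. STAG2 (12.7 ± 1.7 and 9.63 ± 1.1), SMC3 (10.3 ± 0.82 and 10.5 ± 0.18), NCAPH (10.2 ± 0.39 and 11.6 ± 0.48) and SMC4 (9.04 ± 1.3 and 8.96 ± 0.60) were close together. STAG1 was lowest (7.6 ± 1.1 and 6.75 ± 0.54). The order depends on the length used, since merged exons of SMC3 span 15505 bases and its canonical transcript 5522. Per kilobase of the canonical transcript, a choice made after seeing the data, RAD21 (115 ± 6.9 and 97.2 ± 6.3) was above NCAPD2 (109 ± 5.1 and 85.0 ± 0.97), STAG2 reached 32.9 ± 4.3 and 24.9 ± 2.8, and STAG1 remained lowest (9.83 ± 1.4 and 8.74 ± 0.70).

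Ratios taken within each library, as CPM per kilobase of canonical transcripts, describe the balance between subunit transcripts and were not tested. The GC trend was not removed from any ratio here or below. SMC1A has 48.2% GC, against 38.1% for RAD21 and 37.2% for SMC3. With that trend removed, log2 fold changes were −0.44 for SMC1A, −0.18 for SMC3 and 0.09 for RAD21, against −0.41, −0.02 and 0.25 before. Among single tested genes, 51% had groups that did not overlap, and no such share was computed for ratios. RAD21 to SMC1A and NCAPH to NCAPG each pair a gene that was higher with one that was lower in every inhibitor library. Those ratios could therefore not overlap, and they restate the changes of the single genes. SMC1A to SMC3 was 0.865, 0.847, 0.863 and 0.823 in inhibitor replicates 1 to 4, against 1.15, 1.2, 1.04 and 1.05 in control replicates 1 to 4, so that all inhibitor libraries were lower. RAD21 to SMC1A averaged 4.69 ± 0.25 in inhibitor-treated and 2.97 ± 0.073 in control cells, or 158% of control. STAG2 to STAG1 averaged 3.35 ± 0.096 in inhibitor-treated and 2.85 ± 0.23 in control cells, with no overlap. In condensin I, NCAPH to NCAPG was 0.601, 0.678, 0.606 and 0.601 in inhibitor replicates 1 to 4 and 0.983, 0.971, 0.979 and 0.950 in control replicates 1 to 4. The 4 controls lay close together, and no inhibitor library reached them. SMC2 to SMC4 averaged 1.21 ± 0.072 in inhibitor-treated and 1.47 ± 0.042 in control cells, whereas NCAPH to SMC2 overlapped between the groups (0.644 ± 0.089 and 0.596 ± 0.023).

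**Figure D4:**
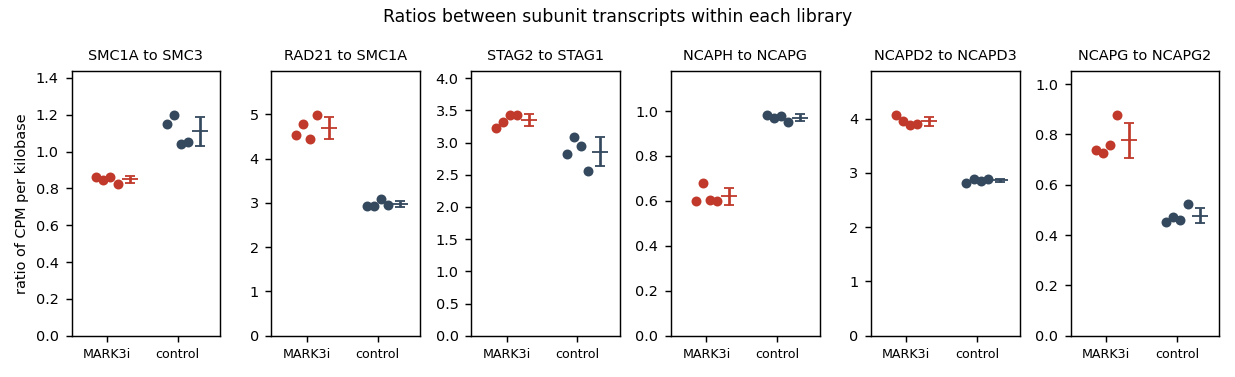
Ratio of CPM per kilobase of canonical transcript (vertical axes, from 0) between subunit transcripts in each inhibitor-treated (MARK3i, red) and control (dark) library; the bar beside the points is the mean with its SD (n = 4). SMC1A to SMC3 and NCAPH to NCAPG are lower, and RAD21 to SMC1A, STAG2 to STAG1, NCAPD2 to NCAPD3 and NCAPG to NCAPG2 higher, in every inhibitor library than in any control library. The groups also do not overlap in 51% of single tested genes, a share not computed for ratios. In RAD21 to SMC1A, NCAPH to NCAPG and NCAPD2 to NCAPD3, the paired genes were themselves separate in opposite directions. Those ratios could therefore not overlap. NCAPH to SMC2 and NCAPH to NCAPH2, which are not drawn, overlap between the groups.

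Of the 3 subunits found only in condensin II, NCAPH2 and NCAPG2 fell and NCAPD3 did not pass (median −0.24), against 29.8% of all tested genes higher and 28.3% lower. NCAPH2, the kleisin, fell by 0.55 ± 0.07 on the log2 scale, with 63.07 ± 6.31 CPM in inhibitor-treated and 92.55 ± 7.33 CPM in control cells (adjusted p = 6.36e-07). NCAPG2 fell too (−0.24 ± 0.07, adjusted p = 0.00595), although not with total counts (−0.14, adjusted p = 0.108) or without inhibitor replicates 2 and 4 (−0.14, adjusted p = 0.145). NCAPD3 was at −0.11 ± 0.05 (adjusted p = 0.0753), and was called lower with the GC trend removed (−0.14, adjusted p = 0.00633) and without inhibitor replicate 1 (−0.15, adjusted p = 0.0256) or 3 (−0.13, adjusted p = 0.0493). NCAPD3 was also called lower with DESeq2 (−0.13, adjusted p = 0.0312) and without both inhibitor replicates 1 and 3 (−0.16, adjusted p = 0.0144). It shares 1889 exonic bases with JAM3 and 249 with VPS26B on the opposite strand. NCAPH2 shares 857 exonic bases with SCO2 on the opposite strand (0.0174 CPM in inhibitor-treated and 0.16 CPM in control cells). It shares 855 more with a long non-coding RNA gene on its own strand (2.71 and 4.24 CPM). As a ratio within libraries, NCAPG to NCAPG2 averaged 0.776 ± 0.070 in inhibitor-treated and 0.477 ± 0.031 in control cells, and NCAPD2 to NCAPD3 3.95 ± 0.086 and 2.86 ± 0.032, with no overlap in either. NCAPD2 was higher and NCAPD3 lower in every inhibitor library than in any control, so their ratio could not overlap. NCAPH to NCAPH2 did overlap (0.588 ± 0.071 and 0.456 ± 0.055).

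NIPBL and MAU2, which form the cohesin loader, rose. Of 5 genes of loading and release, 3 were higher, 0 lower and 2 did not pass (median 0.19), against 29.8% of all tested genes higher and 28.3% lower. With the GC trend removed the list had 2 higher and 1 lower (median 0.05). NIPBL had 99.06 ± 9.57 CPM in inhibitor-treated and 67.27 ± 6.04 CPM in control cells, a rise of 0.56 ± 0.07 (adjusted p = 7.06e-07) with separate groups. Its partner MAU2 rose by 0.23 ± 0.06 (adjusted p = 0.00356), and by 0.34 with the GC trend removed (adjusted p = 3.06e-06). The release factor WAPL was called higher (0.19 ± 0.07, adjusted p = 0.0304), but not with the GC trend removed (0.05, adjusted p = 0.507), with DESeq2 (0.18, adjusted p = 0.0818), or without inhibitor replicate 1 (0.12) or 3 (0.18) or control replicate 3 (0.17) or 4 (0.14; adjusted p up to 0.174). WAPL was also not called without both inhibitor replicates 1 and 3 (0.09, adjusted p = 0.322). PDS5A (−0.14 ± 0.06, adjusted p = 0.0653) and PDS5B (−0.08 ± 0.12, adjusted p = 0.592), which regulate release and acetylation, did not pass. PDS5A was called lower with the GC trend removed (−0.26, adjusted p = 1.77e-05) and without inhibitor replicate 1 (adjusted p = 0.0225) or 3 (adjusted p = 0.0175) or control replicate 3 (adjusted p = 0.0301). PDS5A was also called lower with RLE factors (−0.15, adjusted p = 0.0483) and without both inhibitor replicates 1 and 3 (−0.24, adjusted p = 0.00114).

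Genes that establish cohesion, many of which act at the replication fork, were split as 2 called higher and 7 called lower among 11, while 2 missed the threshold (median −0.29). Of all tested genes, 29.8% were called higher and 28.3% lower. TIMELESS and TIPIN, which form a complex at the fork, fell by 0.64 ± 0.05 (−0.64, adjusted p = 3.01e-10) and 0.85 ± 0.10 (−0.85, adjusted p = 1.02e-07). TIPIN had 13.09 ± 0.90 CPM in inhibitor-treated and 23.5 ± 3.2 CPM in control cells. The helicase gene DDX11 fell by 0.94 ± 0.07 (−0.94, adjusted p = 1.91e-11), although near-identical copies of DDX11 exist, so its count is uncertain. CDCA5, which encodes sororin, the protein that protects cohesion from WAPL, was at −0.28 ± 0.06 (adjusted p = 0.000149), at −0.18 with the GC trend removed (adjusted p = 0.00378) and at −0.18 with total counts (adjusted p = 0.0055). HDAC8, the deacetylase that recycles SMC3, rose by 0.40 ± 0.11 (adjusted p = 0.00252). The acetyltransferase gene ESCO1 was called higher (0.21 ± 0.08, adjusted p = 0.036) but lost the call with the GC trend removed (0.055, adjusted p = 0.506). It also lost the call with DESeq2 (0.20, adjusted p = 0.0957) and without inhibitor replicate 1 (0.15) or 3 (0.195) or control replicate 2 (0.205), 3 (0.19) or 4 (0.15; adjusted p up to 0.168). Without both inhibitor replicates 1 and 3, ESCO1 was not called either (0.12, adjusted p = 0.289). A list of 20 G1/S genes was lower in all 20 cases (median −0.96), and 20 G2/M genes were higher in 16 cases and lower in 1 (median 0.34).

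Genes of cohesin protection and cleavage were split. SGO2, a shugoshin that guards centromeric cohesin, rose by 0.58 ± 0.10 (adjusted p = 1.22e-05), and PTTG1, which encodes the separase inhibitor securin, by 0.56 ± 0.06 (adjusted p = 3.45e-08), with similar copies of PTTG1 making its count uncertain. ESPL1, which encodes separase, had 80.43 ± 7.32 CPM in inhibitor-treated and 105.2 ± 2.78 CPM in control cells (−0.39 ± 0.07, adjusted p = 1.94e-05). The histone kinase gene HASPIN fell by 0.41 ± 0.09 (−0.41, adjusted p = 0.000207). SGO1 did not pass (0.20 ± 0.10, adjusted p = 0.0855), but was called higher with total counts (0.30, adjusted p = 0.01) and with upper-quartile factors (0.23, adjusted p = 0.0465). With the GC trend removed SGO1 was at 0.06 (adjusted p = 0.61). HASPIN shares 427 exonic bases with ITGAE and SGO2 shares 61 with KCTD18, on opposite strands.

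Of the cohesin subunits known from meiosis, SMC1B and STAG3 moved in opposite directions at low levels. SMC1B, the meiotic counterpart of SMC1A, had 7.778 ± 1.7 CPM in inhibitor-treated and 15.99 ± 1.91 CPM in control cells (−1.06 ± 0.13, adjusted p = 3.27e-07). STAG3 had 13.07 ± 1.55 CPM in inhibitor-treated and 7.982 ± 0.998 CPM in control cells (0.71 ± 0.12, adjusted p = 1.86e-05), and similar copies of STAG3 exist elsewhere in the genome. The kleisin gene REC8 did not pass (−0.35 ± 0.25, adjusted p = 0.233), but was called lower without inhibitor replicates 2 and 4 (−0.82, adjusted p = 0.0149). RAD21L1 was too low to be tested, at no more than 0.28 CPM in inhibitor-treated and 0.33 CPM in control libraries.

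The SMC5/6 complex, another SMC ring, which acts in DNA repair, had 5 of 9 genes higher, 2 lower and 2 not passing (median 0.25), against 29.8% of all tested genes higher and 28.3% lower. SLF2 (0.36 ± 0.07, adjusted p = 0.000138) and NSMCE2 (0.37 ± 0.08, adjusted p = 0.000275) rose, the second encoding a SUMO ligase. NSMCE4A (−0.30 ± 0.07, adjusted p = 0.000382) and NSMCE1 (−0.24 ± 0.08, adjusted p = 0.00833) fell, NSMCE1 not with total counts (−0.14, adjusted p = 0.112). The arm gene SMC6 rose by 0.27 ± 0.08 (adjusted p = 0.00781), but not with the GC trend removed (0.12, adjusted p = 0.168). It was also not called without inhibitor replicates 1 and 3 (0.15, adjusted p = 0.16). NSMCE3 (0.25 ± 0.08, adjusted p = 0.0121) lost its call with the GC trend removed (0.14, adjusted p = 0.131) and, with a change nearer to the first, without inhibitor replicate 1 (0.20, adjusted p = 0.0535) or control replicate 3 (0.21, adjusted p = 0.0566). Leaving out inhibitor replicates 2 and 4 also ended the NSMCE3 call (0.22, adjusted p = 0.0623). Counts over this list with the GC trend removed were 3 higher and 3 lower.

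CTCF, the factor that stops cohesin at loop anchors, did not pass the test. It had 107.9 ± 2.63 CPM in inhibitor-treated and 111.9 ± 5.34 CPM in control cells (−0.05 ± 0.06, adjusted p = 0.451), and the sign turned with total counts (0.05, adjusted p = 0.444). YY1 (0.001 ± 0.06, adjusted p = 0.987) and ADNP (−0.07 ± 0.06, adjusted p = 0.354) did not pass either, although ADNP was called lower with the GC trend removed (−0.14, adjusted p = 0.0189). The zinc finger genes MAZ (−0.75 ± 0.07, adjusted p = 3.56e-09) and ZNF143 (−0.29 ± 0.10, adjusted p = 0.0171) fell. The ZNF143 call ended without inhibitor replicate 2 (−0.23, adjusted p = 0.0737) and with total counts (−0.18, adjusted p = 0.112). It also ended without both inhibitor replicates 2 and 4 (−0.26, adjusted p = 0.0835).

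In a list of 10 genes related to mitotic chromosome assembly, 5 were higher, 0 lower and 5 did not pass (median 0.16). With the GC trend removed, 5 were higher and 1 lower (median 0.125). Of this list, 6 genes are also in the G2/M list. TOP2A, the mitotic topoisomerase, had 412.1 ± 45 CPM in inhibitor-treated and 281.4 ± 20.6 CPM in control cells (0.55 ± 0.07, adjusted p = 4.31e-07). Its paralog TOP2B rose by 0.58 ± 0.06 (adjusted p = 3.47e-09), and the kinase gene PLK1 by 0.32 ± 0.06 (adjusted p = 0.000113). CCNB1, which encodes cyclin B1, rose by 0.20 ± 0.06 (adjusted p = 0.00496), and by 0.125 with the GC trend removed (adjusted p = 0.0266). Across the 8 lists of partner genes, 18 of 51 tested genes were higher and 16 lower, against 29.8% and 28.3% of all tested genes, and 14 were higher and 22 lower with the GC trend removed.

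**Figure D5:**
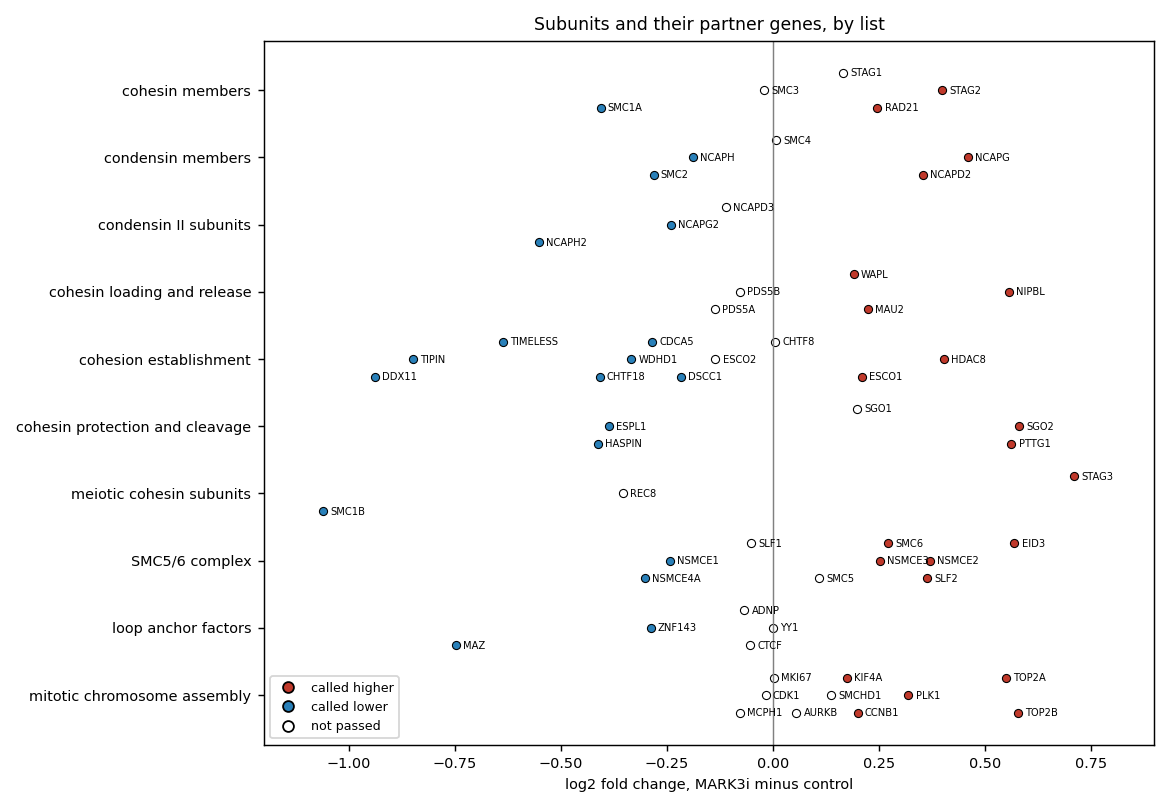
Log2 fold change (inhibitor minus control, horizontal axis) of each tested subunit and partner gene, by list, coloured by call (red higher, blue lower, white not passed; edgeR adjusted p under 0.05). The condensin II genes lie at or below −0.11, the loading genes NIPBL and MAU2 above 0, and most cohesion establishment genes below 0.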

How the data were processed

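RNA of 22Rv1 cells was sequenced in 4 PCC0208017-treated and 4 DMSO control samples, grouped by their titles. The authors deposited raw counts of reads per Ensembl gene. Per the submitters' processing notes and design text, reads were aligned to hg38, counted by featureCounts and analysed with DESeq2. No source used here states the aligner, annotation, versions, strandedness or library kit. Each file held 58735 genes, of which 58207 matched GENCODE release 44 (hg38), the source of symbols, positions, lengths and transcript GC content.

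The test was edgeR's (4.0.16, under R 4.3.3): filterByExpr (16452 genes kept), TMM factors (1.011 to 1.059 in inhibitor-treated, 0.96 to 0.968 in control libraries), glmQLFit with robust dispersion and glmQLFTest on the group, with Benjamini-Hochberg adjustment and a threshold of 0.05. The SE is the absolute log2 fold change divided by the square root of the F statistic. The procedure was tried on simulated counts in which few genes changed and no GC trend was present. That simulation does not show how the test, the scaling or the GC offsets perform on data such as these. The median SE over all genes was 0.0957, and the subunits had SEs from 0.053 (NCAPD2) to 0.091 (SMC2). Every pair of libraries within a group differed by more than sampling noise.

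Members and gene lists were chosen with earlier results of these data known. Named were the 10 members, all genes of partner lists with up to 5 genes, and up to 4 called genes per direction, with the smallest p, of the longer lists. Also tried were DESeq2 1.42.0 and limma-voom (limma 3.58.1), scaling by total counts, RLE or upper quartiles, filters of 1 CPM in 4 libraries or none, non-robust dispersion, the replicate number as a block, offsets that remove each library's GC trend (lowess, span 0.3, GC known for 99.4% of tested genes), each library left out in turn, and a threshold of 0.01. Chosen after seeing the data were leaving out inhibitor replicates 1 and 3 or 2 and 4, and the canonical transcript length. The ratios RAD21 to SMC1A and NCAPH to NCAPG were not among those planned beforehand.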

Additional observations from a re-analysis of the deposited data

Results flagged for a closer look

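PDS5B in inhibitor replicate 3 stood apart from the other libraries of its group, at 12.4 CPM against 9.9 to 10.3 CPM in inhibitor replicates 1, 2 and 4. The gap took 0.839 of the range of the group, above Dixon's 95% critical value for 4 samples. It was the only 1 of 96 sets of 4 libraries (48 genes in each of 2 groups) past that value, and chance alone puts about 1 in 20 there.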

How the results depend on the processing

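Against 4 higher and 3 lower among the 10 subunits, total counts gave 1 lower, the GC offsets 5 lower (also 5 with the replicate block beside them), a threshold of 0.01 gave 1 lower, and leaving out inhibitor replicates 2 and 4 gave 1 lower. The cause was not tested. The numbers higher stayed between 3 and 5 in every alternative. Leaving out each library gave 4 to 5 higher and 3 lower, and the partner genes 13 to 18 higher and 14 to 19 lower. SMC4, at 0.01 and not called, was called lower at −0.149 with the GC offsets, at −0.151 with the replicate block and the GC offsets, and at −0.193 without inhibitor replicates 1 and 3. Over all genes, total counts gave 6274 higher and 3596 lower, a share of higher calls above that of the 4897 and 4652 with TMM. Of 1034 gene-by-alternative values for the 47 tested named genes, 963 kept direction and side of the threshold, or stayed uncalled. Deviations from the group means correlated at 0.131, −0.088, −0.053 and 0.084 between libraries of the same number, for replicates 1 to 4. Between libraries of different numbers the correlations ran from −0.161 to 0.129. These values show no clear pairing by replicate number, and they cannot exclude one. The replicate block gave 4912 higher and 4684 lower over all genes, 4 and 3 among the subunits, and changed no call of a named gene. Small changes such as that of STAG1 (0.165, SE 0.086) could not be told from 0 here. STAG1 was at −0.03 without inhibitor replicates 1 and 3 and at 0.32 without inhibitor replicates 2 and 4.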
